A study of Homo sapiens with 12 samples.

Results

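Wild-type cells recovering from a pulse of MPS1 inhibition were compared directly with wild-type cells given interferon beta. The comparison used 4 of the 12 libraries of the series, chosen by their labels: SCR MPS1i replicates 1 and 2 against SCR IFNb replicates 1 and 2. All were made from NCI-H1944, a human lung adenocarcinoma line, and hold RNA pulled down with J2, an antibody that binds double-stranded RNA. SCR cells are labelled WT, and IFNAR1sg cells, used here for comparison and in the shared estimate of spread, an IFNAR1 knockout. SCR MPS1i cells had 48 h of the MPS1 inhibitor BAY-1217389 at 100 nM, then 24 h without the drug. SCR IFNb cells had recombinant IFNb at 5 ng/ml during those 24 h; what they received in the 48 h before is not spelled out in the labels. SCR DMSO cells had the solvent for 48 h and neither agent afterwards. The stage-matched IFNAR1sg groups (MPS1i, IFNb, DMSO) had 2 libraries each, and the labels do not say whether a genotype stands for 1 clone or a pool. Nothing states that replicates were separate cultures, so p-values measure the spread between replicate libraries, over all 12 libraries, which may be technical. Input RNA was not used here, so the amount of a transcript and its double-stranded share cannot be told apart.

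MPS1 (also called TTK) is a kinase of the spindle checkpoint, and cells that divide without it missegregate chromosomes and form micronuclei. Such cells can make interferon through cytosolic DNA and RNA sensors, and can also activate p53, NF-kB and stress genes. Interferon beta binds a receptor of IFNAR1 and IFNAR2 and, through JAK kinases and a complex that holds STAT2 and IRF9, turns on interferon-stimulated genes at a promoter element called ISRE. Several of those genes encode proteins that bind double-stranded RNA, among them the OAS enzymes and the kinase PKR (EIF2AK2). Double-stranded RNA in a cell comes from inverted repeats such as Alu pairs in introns and untranslated ends, from RNA that reads past the end of a gene, and from transcripts of both strands.

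Matches to the ISRE are shown here for the promoters of TRIM5, IFIT1 and IFIT5. TRIM5 and IFIT1 were higher in SCR IFNb libraries. IFIT5 was higher in SCR MPS1i libraries in reads on its own strand outside exons. Most TRIM5 reads lay over exons of genes on the other strand, as given below. CXCL8 and NFKBIZ, which were higher in SCR MPS1i libraries, show matches for AP-1 and NF-kB. Sequences are from RefSeq (GRCh38.p14), read in the direction of the gene from a window of 250 bases before to 50 after its start. Capitals mark the match: the ISRE half-sites GAAANNGAAA (seen here as its reverse complement), the AP-1 site TGANTCA or the NF-kB site GGGANNTTCC. A further ISRE match of IFIT5, in the window chr10:89414534-89414573, is not shown in capitals.
TRIM5, chr11:5685077-5685116, gene on the minus strand: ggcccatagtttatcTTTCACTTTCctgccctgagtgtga
IFIT1, chr10:89392492-89392531, gene on the plus strand: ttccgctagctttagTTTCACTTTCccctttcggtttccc
IFIT1, chr10:89392505-89392544, gene on the plus strand: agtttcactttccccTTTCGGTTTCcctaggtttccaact
IFIT5, chr10:89414508-89414547, gene on the plus strand: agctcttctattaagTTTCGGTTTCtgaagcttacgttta
IFIT5, chr10:89414549-89414588, gene on the plus strand: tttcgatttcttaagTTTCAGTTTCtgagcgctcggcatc
CXCL8, chr4:73740417-73740453, gene on the plus strand: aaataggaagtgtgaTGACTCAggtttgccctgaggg
NFKBIZ, chr3:101827752-101827791, gene on the plus strand: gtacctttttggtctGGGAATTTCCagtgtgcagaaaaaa

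Searched on both strands, GAAANNGAAA was found in 31 of the 55 interferon-stimulated genes of the fixed list that had a promoter in the table (56.4%), against 2.92% of the 10249 tested genes with one and 3.65% of all 27305 promoters. Among list members higher in SCR IFNb it was in 9 of 15, among those higher in SCR MPS1i in 2 of 8, and among those not called in 20 of 32. It was in 23 of 313 promoters of all gene sums higher in SCR IFNb (7.35%) and in 83 of 3798 of those higher in SCR MPS1i (2.19%). GGGANNTTCC was in 6 of 19 NF-kB list promoters, against 1.59% of tested genes. TGANTCA was in 193 of 3798 promoters of gene sums higher in SCR MPS1i (5.08%), against 5.02% of tested genes. The CRE site TGACGTCA, which contains no other of these motifs, was in 116 of those 3798 (3.05%), against 3.16% of tested genes. None of the 4 motifs was found in the 7 promoters held for the 12 most significant gene sums higher in SCR MPS1i.

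The table counted reads in stranded genomic regions. The SCR MPS1i libraries had 4173239 and 5835711 reads, the SCR IFNb libraries 3842532 and 3739443, and the SCR DMSO libraries 6801465 and 5863159. Reads fell in 566704 and 710080 regions in SCR MPS1i, in 295367 and 296843 in SCR IFNb, and in 704902 and 625648 in SCR DMSO. The make-up of the SCR IFNb libraries differed from that of the other 10, and every result below rests on them. Regions touching an exon of their own strand by 1 base or more (exon-sharing regions) held 39.7% and 37.7% of reads in SCR MPS1i, 49.6% and 47.9% in SCR IFNb, and 35.3% and 33.5% in SCR DMSO. Intronic regions held 28.0% and 27.8% in SCR MPS1i, 19.4% and 19.6% in SCR IFNb, and 37.8% and 35.6% in SCR DMSO. With 2 libraries a group, an exact two-sided permutation test of such a share cannot go below p = 0.333. Of the lung epithelial marker list, 12 of 15 were detected and KRT19, NKX2-1 and SCGB1A1 were at 0. Their summed level, exon-sharing regions included, was 4185 and 3807 CPM (reads scaled by library total and TMM) in SCR MPS1i, 5533 and 5079 in SCR IFNb, and 2476 and 2297 in SCR DMSO. Fibroblast markers summed to 28.4 and 29.6 CPM in SCR MPS1i, 11.5 and 8.28 in SCR IFNb, and 5.67 and 4.26 in SCR DMSO, with COL1A2, PDGFRA and PDGFRB at 0. Immune markers summed to 15.1 and 16.2 CPM in SCR MPS1i, 13.8 and 15.4 in SCR IFNb, and 3.50 and 3.87 in SCR DMSO, with 6 of 14 at 0, including CD3D and MS4A1. The part of fibroblast and immune markers in the results was not tested. IFNAR1, regions that share exon bases included, was covered by 54 and 68 reads in SCR MPS1i, against 39 and 31 in SCR IFNb and 103 and 93 in SCR DMSO. In the 6 IFNAR1sg libraries it was covered by 32 to 46 reads, which does not tell edited from unedited transcripts.

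The pulse and the cytokine left different kinds of J2-bound RNA. Intronic and intergenic RNA was relatively higher in SCR MPS1i libraries, while RNA at exons of interferon-stimulated genes, in regions listed on both strands, was higher in SCR IFNb libraries. Of 89111 tested regions, 6083 were higher in SCR MPS1i (6.83%) and 5155 lower (5.78%) at an adjusted p under 0.05 in edgeR's quasi-likelihood test with Benjamini-Hochberg adjustment. Among 51774 intronic regions 3287 were higher and 847 lower, and among 12494 intergenic regions 1581 were higher and 394 lower. Of 9630 exon-sharing regions 269 were higher and 2014 lower (20.9%), although most of these shared at most 2 bases with the exon. Antisense regions, which lie opposite a gene, were split by what they faced. Of the 13208 that covered exon bases of the other strand 729 were higher and 1826 lower (13.8%), and of the 2005 that covered none 217 were higher and 74 lower. The median log2 difference was 0.45 in intronic and 0.46 in intergenic regions, and -0.29 in antisense regions over exons and -0.37 in exon-sharing regions. Leaving out any one of the 4 libraries left 2397 to 3719 regions higher and 2608 to 3319 lower. Without TMM factors (edgeR's trimmed-mean scaling) 10593 regions were higher and 2050 lower, and the medians of antisense regions over exons and of exon-sharing regions were 0.02 and -0.05.

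**Figure D1:**
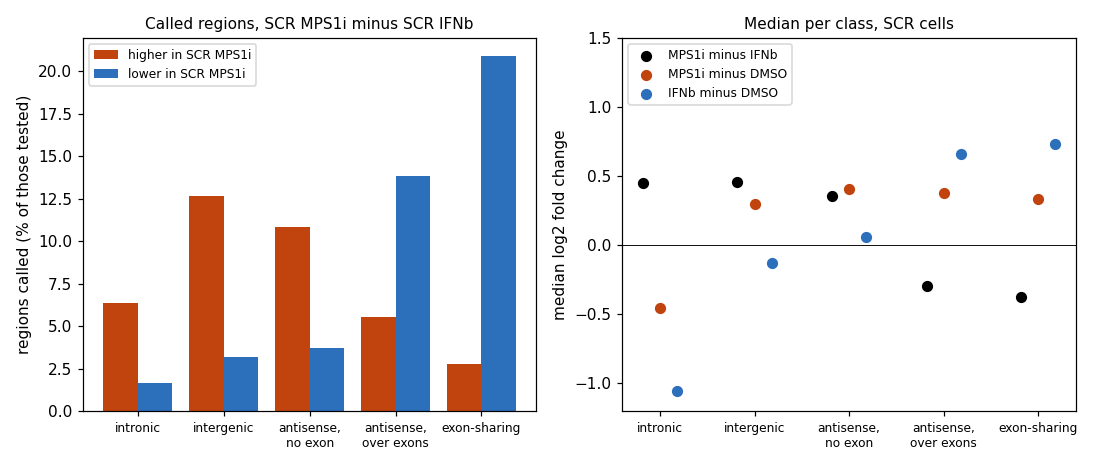
The left bars give the percent of tested regions called higher (orange) or lower (blue) in SCR MPS1i than in SCR IFNb, by region class, and the right points give class medians of the log2 fold change for MPS1i minus IFNb, MPS1i minus DMSO and IFNb minus DMSO in SCR cells. Exon-sharing regions were called lower in 20.9% of cases, and the intronic median of IFNb minus DMSO was -1.05.

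The median of intronic regions was -0.45 for SCR MPS1i minus SCR DMSO and -1.05 for SCR IFNb minus SCR DMSO, so intronic RNA was below DMSO in both and lower with interferon. The 2 comparisons with DMSO share its libraries and are given side by side only. In IFNAR1sg cells the direct difference had a median of -0.27 in intronic regions and 0.02 in exon-sharing regions, against 0.45 and -0.37 in SCR cells. For antisense regions over exons the IFNAR1sg median was 0.33, and for intergenic regions 0.34.

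Of the 8 most significant regions higher after the pulse, at most 1 per neighbourhood of 50 kb, 5 began within 5000 bp past the end of a coding gene. Region chr12:68853902-68886318 on the plus strand began 3216 bp past the end of MDM2, the ubiquitin ligase that restrains p53, and runs opposite the gene CPM, with 3868 bases over exons of that strand. It had 187 and 179 CPM in SCR MPS1i, against 13.4 and 14.3 in SCR IFNb and 27.5 and 26.5 in SCR DMSO (log2 fold change 3.72 ± 0.21 (SE), adjusted p = 1.19e-24). Both SCR MPS1i libraries were above all 4 others. The same region differed by 3.46 in IFNAR1sg cells.

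Region chr5:179840427-179844927 on the plus strand began 2349 bp past SQSTM1, which encodes the autophagy receptor p62, and lies opposite MRNIP. It had 125 and 137 CPM in SCR MPS1i, against 8.18 and 12.4 in SCR IFNb and 27.3 and 23.4 in SCR DMSO (log2 fold change 3.67 ± 0.23 (SE), adjusted p = 3.73e-22). Region chr4:87984681-87989733 on the plus strand began 1255 bp past SPP1, the gene of the secreted protein osteopontin, with no gene on the other strand. It had 38.6 and 36.7 CPM in SCR MPS1i, against 1.12 and 1.13 in SCR IFNb and 1 and 2.13 in SCR DMSO, a log2 fold change of 5.04 ± 0.42 (SE). The SCR IFNb level rested on 3 reads in each library, so the size of the difference is imprecise. Of the 6 SCR libraries the 2 given MPS1i stood far above the rest at this region, and SCR IFNb was near SCR DMSO.

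Region chr10:32894208-32900273 on the minus strand began 46 bp past ITGB1, the integrin beta 1 gene. It had 214 and 183 CPM in SCR MPS1i, against 51.7 and 45.5 in SCR IFNb and 261 and 255 in SCR DMSO (log2 fold change 2.03 ± 0.16 (SE), adjusted p = 1.48e-16). Here the SCR MPS1i libraries were below SCR DMSO and the SCR IFNb libraries lower still. Region chr17:16777886-16782764 on the plus strand, an intronic region 5 bp past CCDC144A within ENSG00000266302, had the same order, with 119 and 109 CPM in SCR MPS1i, against 21.9 and 21.8 in SCR IFNb and 213 and 196 in SCR DMSO.

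Region chr5:43245665-43277154 on the minus strand lay 12241 bp past HMGCS1, an enzyme of sterol synthesis, and opposite NIM1K. It had 43.9 and 43 CPM in SCR MPS1i, against 2.97 and 1.5 in SCR IFNb and 5.17 and 5.04 in SCR DMSO (log2 fold change 4.26 ± 0.35). The SCR IFNb values came from 8 and 4 reads. Region chr4:3342934-3439912 on the minus strand, opposite RGS12 and 63685 bp past LRPAP1, had 113 and 106 CPM in SCR MPS1i, against 4.83 and 8.65 in SCR IFNb and 6.16 and 7.94 in SCR DMSO. Region chr6:24666931-24698443 on the minus strand shared 103 exon bases with TDP2, which repairs topoisomerase adducts, and had 173 and 155 CPM in SCR MPS1i, against 24.2 and 28.6 in SCR IFNb and 39.5 and 38.2 in SCR DMSO. In 6 of these 8 regions (all but those at CCDC144A and ITGB1) the SCR MPS1i libraries lay above the SCR DMSO libraries by a log2 difference of 2.08 to 4.60, and these 6 differed between MPS1i and IFNb by 2.66 to 4.69 in IFNAR1sg cells. Over all 7336 antisense or intergenic regions that began within 5000 bp past a coding gene, 710 were higher (9.68%) and 573 lower (7.81%). Among all regions 6.83% were higher and 5.78% lower. The class thus went both ways in SCR cells, and the leading regions do not stand for it there. In IFNAR1sg cells 1023 of the class were higher with MPS1i than with IFNb and 77 lower, where 5746 and 5229 of all 89111 regions were.

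Of the 8 most significant regions lower after the pulse, those opposite MX2, in TRIM5 and in IFI6 lay at members of the interferon-stimulated list. The others lay opposite, within or between genes of several kinds. Region chr21:41361814-41410216 on the minus strand lies opposite MX2, a dynamin-like GTPase that restricts viruses, and covers 13047 exon bases of the other strand. It had 90.9 and 112 CPM in SCR MPS1i, against 484 and 599.6 in SCR IFNb and 4.33 and 4.45 in SCR DMSO (log2 fold change -2.41 ± 0.17 (SE), adjusted p = 9.24e-19). The 2 SCR IFNb libraries were above both SCR MPS1i libraries, which in turn were above SCR DMSO. In IFNAR1sg cells the difference was -0.17, and the interaction was -2.24 (adjusted p = 1.46e-09).

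Region chr1:77926748-77943233 on the minus strand, opposite the actin-binding gene NEXN and 822 bp past FUBP1, had 13.3 and 8.42 CPM in SCR MPS1i, against 109 and 121 in SCR IFNb and 0.666 and 2.13 in SCR DMSO (log2 fold change -3.43 ± 0.26 (SE), adjusted p = 1.22e-17). Region chr11:5689433-5716546 on the minus strand, in an intron of TRIM5, faces TRIM22 and covers 4869 exon bases of that strand. It had 101 and 125 CPM in SCR MPS1i, against 597 and 561 in SCR IFNb and 5.83 and 10.8 in SCR DMSO. At these loci a read may belong to either strand's transcript, since the sources used here do not say how strand was counted.

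Region chr1:89422287-89422911 on the plus strand, in the pseudogene GBP1P1, had 12.1 and 14.5 CPM in SCR MPS1i, against 109 and 105 in SCR IFNb and 0.833 and 1.16 in SCR DMSO. Region chr1:27667389-27668226 on the minus strand, 1 base into an exon of IFI6, a mitochondrial and endoplasmic reticulum protein induced by interferon, had 240.1 and 287 CPM in SCR MPS1i, against 788 and 955 in SCR IFNb and 23 and 24.2 in SCR DMSO (log2 fold change -1.72 ± 0.15 (SE), adjusted p = 2.29e-15). These 5 regions, opposite MX2 and NEXN and at TRIM5, GBP1P1 and IFI6, were above DMSO in both SCR treatments.

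The other 3 showed another order. Region chr1:937573-939040 on the plus strand in SAMD11 had 57.5 and 66.3 CPM in SCR MPS1i, against 245 and 238 in SCR IFNb and 83.5 and 78 in SCR DMSO. Region chr20:4295014-4296949 on the plus strand, between genes and 99071 bp past LINC01433, had 57.2 and 44.5 CPM in SCR MPS1i, against 207 and 211 in SCR IFNb and 56.1 and 66.6 in SCR DMSO. In both, SCR MPS1i was near or below SCR DMSO and SCR IFNb alone was higher. Region chr4:165337183-165337789 on the plus strand in MSMO1, a methylsterol oxidase of cholesterol synthesis, had 194 and 179.9 CPM in SCR MPS1i, against 592 and 579 in SCR IFNb and 163 and 155 in SCR DMSO, a log2 fold change of -1.65 ± 0.14.

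Regions on both strands of interferon-stimulated genes were lower after the pulse over the list as a whole. How strand was counted is not stated in the sources used here, so reads given to the other strand may belong to the gene's own transcript. Of 84 tested exon-sharing regions on the strand of 44 list members, 51 were lower in SCR MPS1i and 1 was higher (60.7% lower, against 20.9% of all exon-sharing regions). Of 87 antisense regions over exons of 70 list members, 57 were lower and 1 was higher (65.5%, against 13.8% of all such regions). Their medians were -0.87 and -1.24. The genes that follow were chosen after their values were seen. MX1 regions summed to 198 and 150.5 CPM in SCR MPS1i against 353 and 363 in SCR IFNb on the gene's strand, and to 92.7 and 115 CPM in SCR MPS1i against 259 and 242 in SCR IFNb on the other. IFI44 had 207 and 185 CPM in SCR MPS1i against 412 and 382 in SCR IFNb on its strand. On the other it had 48.2 and 62.4 CPM in SCR MPS1i against 127 and 110.2 in SCR IFNb, in a region also over IFI44L exons. In each of these pairs both strands were higher in SCR IFNb, and the groups did not overlap. OAS1 and DDX60 regions, 1 per strand, were not called. For p53 targets, 8 of 31 regions on the gene's strand were higher and 0 lower, and 5 of 35 opposite regions were higher and 2 lower. Of all exon-sharing regions 2.79% were higher, and of all antisense regions over exons 5.52%. MDM2 alone held 12 of the 31 regions and 5 of the 8 higher ones. Its summed level on that strand did not separate the groups, at 6565 and 6127 CPM in SCR MPS1i against 6642 and 6037 in SCR IFNb. For NF-kB targets 2 of 15 and 1 of 27 were higher, and 2 and 4 were lower.

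Reads were next summed per gene over regions on its strand that share no exon base, so a gene sum is mostly intronic RNA and leaves out exons. Of 14642 tested gene sums 5298 were higher in SCR MPS1i (36.2%) and 492 lower (3.36%). The median of all gene sums was 0.61. Scaling factors came from all regions, and the SCR IFNb libraries were low in introns. Without TMM factors the median moved by 0.32, and with TMM factors made on the gene sums themselves (the gene-sum scaling) it moved by -0.61 to 0. On that scaling 1566 gene sums were higher and 2131 lower. With exon-sharing regions added to the sums, 4346 of 15752 were higher (27.6%) and 1671 lower (10.6%), with a median of 0.39. A log2 difference below is given on the region scaling without exon-sharing regions unless said otherwise, and a list is given in all 3 ways. Each list count is to be read beside the share of all gene sums. That is 36.2% higher and 3.36% lower on the region scaling, 1566 and 2131 of 14642 on the gene-sum scaling, and 27.6% and 10.6% with exon-sharing regions. Levels are CPM scaled by TMM, with 2 libraries a group.

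SDCBP, which encodes the scaffold syntenin used in exosome formation, had the smallest p among gene sums higher after the pulse (chromosome 8, 58552924 to 58582860, plus strand). It had 157 and 142 CPM in SCR MPS1i, against 26.4 and 19.2 in SCR IFNb and 26.8 and 21.3 in SCR DMSO (log2 fold change 2.71 ± 0.17 (SE), adjusted p = 1.02e-31). The SCR IFNb libraries were at the DMSO level and the SCR MPS1i libraries stood alone. In IFNAR1sg cells it differed by 2.68. POLR2A, the largest subunit of RNA polymerase II (chromosome 17, 7484366 to 7514616, plus strand), showed the same picture, with 231 and 215 CPM in SCR MPS1i, against 65.4 and 70 in SCR IFNb and 67 and 79 in SCR DMSO and a log2 fold change of 1.72 ± 0.13. For these genes the interaction with genotype was 0.03 and -0.26, and neither was called.

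TSKU, a secreted leucine-rich protein, had 109.7 and 97.4 CPM in SCR MPS1i, against 21.6 and 18.4 in SCR IFNb and 42 and 26.9 in SCR DMSO (log2 fold change 2.37 ± 0.17 (SE), adjusted p = 5.4e-25). RPL37A, a protein of the large ribosomal subunit, had 75.1 and 65 CPM in SCR MPS1i, against 5.58 and 9.78 in SCR IFNb and 38 and 33.1 in SCR DMSO. In both genes SCR MPS1i was above SCR DMSO and SCR IFNb below it. SNX31, a sorting nexin, had 97 and 141 reads in SCR MPS1i, against 1 in each SCR IFNb library, a ratio of 80.9 with a counting interval of 22.2 to 672 (exact binomial, 95%, counting error only), and 3.17 and 4.65 CPM in SCR DMSO.

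In a second set SCR IFNb lay under SCR DMSO, and SCR MPS1i did not exceed it by the test. PVT1, a long noncoding RNA beside MYC, had 618 and 602 CPM in SCR MPS1i, against 234 and 279 in SCR IFNb and 839 and 728 in SCR DMSO (log2 fold change 1.25 ± 0.09 (SE), adjusted p = 1.75e-25). SNHG5, a host gene of small nucleolar RNAs, had 63 and 66.1 CPM in SCR MPS1i, against 7.81 and 10.9 in SCR IFNb and 60.5 and 71.3 in SCR DMSO. CHST11, a chondroitin sulfotransferase, had 209.5 and 171 CPM in SCR MPS1i, against 67.7 and 61.3 in SCR IFNb and 193 and 161 in SCR DMSO. After the pulse PVT1 was below DMSO, while SNHG5 and CHST11 were not called against it.

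ENSG00000266302 (chromosome 17, 16690261 to 16804453, plus strand) and ZNF706 were below DMSO in both treatments, with 137 and 127 CPM in SCR MPS1i, against 27.9 and 26 in SCR IFNb and 263 and 239 in SCR DMSO for the first and a log2 fold change of 2.05 ± 0.16 for the second. PTCHD4, a patched-domain protein known as a p53 target, differed by 2.28 ± 0.15, and ALCAM, the adhesion molecule CD166, by 2.17 ± 0.17. In both, SCR MPS1i was above SCR DMSO by 0.47 and 0.37 on the log2 scale, and SCR IFNb below it by differences of -1.82 and -1.80. All 12 kept a positive sign on the gene-sum scaling, with differences of 0.64 (PVT1) to 5.67 (SNX31). With exon-sharing regions ALCAM, ZNF706 and CHST11 differed by 1.55, 1.27 and 0.89.

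**Figure D2:**
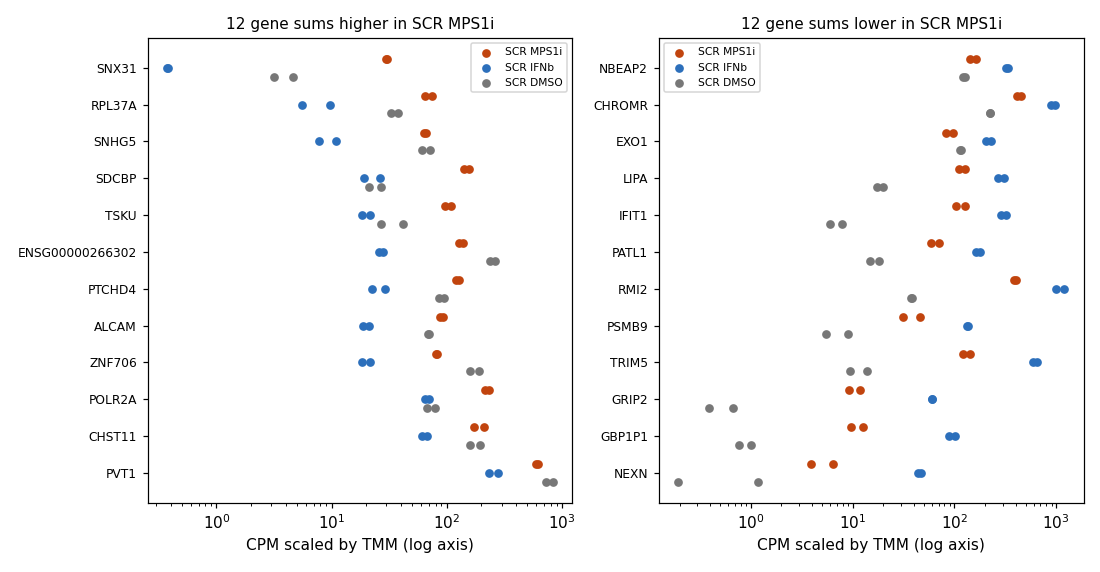
Each point is the level of 1 library (CPM scaled by TMM, log axis) for the 12 gene sums with the smallest p in each direction, with SCR MPS1i in orange, SCR IFNb in blue and SCR DMSO in grey. SDCBP had 157 and 142 CPM in SCR MPS1i against 26.4 and 19.2 in SCR IFNb, and TRIM5 had 121 and 142 CPM in SCR MPS1i against 641 and 596 in SCR IFNb.

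TRIM5 led the gene sums that were lower after the pulse than with interferon (chromosome 11, 5663557 to 5938619, minus strand). It encodes a restriction factor of retroviral capsids, and 91.8% of its reads lay in regions over exons of genes on the other strand, TRIM22 among them. It had 121 and 142 CPM in SCR MPS1i, against 641 and 596 in SCR IFNb and 9.5 and 13.9 in SCR DMSO (log2 fold change -2.23 ± 0.12 (SE), adjusted p = 6.26e-39). RMI2, a subunit of the BLM helicase complex (chromosome 16, 11249619 to 11381662, plus strand), had 384 and 402 CPM in SCR MPS1i, against 997 and 1199 in SCR IFNb and 37.2 and 38.2 in SCR DMSO (log2 fold change -1.48 ± 0.10 (SE), adjusted p = 1.1e-29), and 0.29% of its reads lay in regions over such exons. Both groups were above SCR DMSO, with no overlap between any of the 3.

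IFIT1, which binds foreign RNA ends, had 128 and 105 CPM in SCR MPS1i, against 319.7 and 288 in SCR IFNb and 7.83 and 6 in SCR DMSO (log2 fold change -1.39 ± 0.13 (SE), adjusted p = 7.59e-19). GBP1P1 had 9.58 and 12.7 CPM in SCR MPS1i, against 103 and 89.5 in SCR IFNb and 1 and 0.775 in SCR DMSO, and PSMB9, a subunit of the immunoproteasome, had 31.2 and 45.6 CPM in SCR MPS1i, against 134 and 135 in SCR IFNb and 5.5 and 9.1 in SCR DMSO. LIPA, the lysosomal acid lipase gene whose annotated span faces IFIT genes on the other strand, had 112 and 126 CPM in SCR MPS1i, against 268 and 310.4 in SCR IFNb and 20 and 17.2 in SCR DMSO, with 87.4% of its reads in regions over other-strand exons. The share was 96.0% for PSMB9 and 66.5% for CHROMR. Unless strand was used in counting, reads of these genes cannot be told apart from those of their partners.

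PATL1, a factor of messenger RNA decapping, had 70.8 and 59.6 CPM in SCR MPS1i, against 178 and 164 in SCR IFNb and 15 and 18 in SCR DMSO. GRIP2, a synaptic scaffold gene, had 9.27 and 11.9 CPM in SCR MPS1i, against 59.9 and 60.2 in SCR IFNb and 0.666 and 0.387 in SCR DMSO, and NEXN had 6.49 and 3.89 CPM in SCR MPS1i, against 44.2 and 47.4 in SCR IFNb and 1.17 and 0.194 in SCR DMSO. CHROMR, a long noncoding RNA, differed by -1.12 ± 0.09 and the pseudogene NBEAP2 by -1.11 ± 0.11. EXO1, an exonuclease of mismatch repair, had 97 and 82.5 CPM in SCR MPS1i, against 231 and 203 in SCR IFNb and 116 and 113 in SCR DMSO (log2 fold change -1.28 ± 0.12 (SE), adjusted p = 5.73e-18), so it was above DMSO with interferon and below it after the pulse. All 12 kept a negative sign on the gene-sum scaling.

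Interferon-stimulated genes were high in both treatments, and by direct comparison more of them were called higher with interferon than after the pulse. Of 74 measured list members, 72 were called higher in SCR MPS1i than in SCR DMSO and 71 in SCR IFNb than in SCR DMSO, where 22.2% and 7.92% of all gene sums were. Directly compared, the list had 9 of 74 measured members higher and 25 lower (median -0.26), where 36.2% of all gene sums were higher and 3.36% lower. On the gene-sum scaling 1 was higher and 49 lower (median -0.87), beside 1566 and 2131 of all 14642. With exon-sharing regions included 3 were higher and 41 lower (median -0.56). Without TMM factors 14 were higher and 16 lower (median 0.04), so the sign of the median depended on the scaling. CMPK2, a nucleotide kinase of the antiviral response, had 40.5 and 51.6 CPM in SCR MPS1i, against 130.5 and 112 in SCR IFNb and 2.33 and 1.94 in SCR DMSO (log2 fold change -1.38 ± 0.16 (SE), adjusted p = 2.38e-12). USP18, which removes ISG15 and dampens the receptor, had 60.3 and 55.3 CPM in SCR MPS1i, against 124 and 136 in SCR IFNb and 6.5 and 4.84 in SCR DMSO. MX1 and OAS2 were named after their values were seen. MX1 had 58.1 and 55.7 CPM in SCR MPS1i, against 97.4 and 94.8 in SCR IFNb and 4.17 and 3.49 in SCR DMSO, and OAS2, an enzyme activated by double-stranded RNA, had 17.9 and 20.1 CPM in SCR MPS1i, against 32.7 and 29.3 in SCR IFNb and 2 and 1.16 in SCR DMSO. Both passed the test in the direct comparison, with log2 fold changes of -0.76 and -0.70. ISG15, the ubiquitin-like modifier, had 19.5 and 22.5 CPM in SCR MPS1i, against 27.5 and 30.8 in SCR IFNb and 5.5 and 6 in SCR DMSO, a difference of -0.47 ± 0.23 that was not called (adjusted p = 0.0953) but was called on the gene-sum scaling (-1.07).

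The 9 members higher in SCR MPS1i were IFIT5, SHISA5, BATF2, RSAD2, SP110, HERC6, OASL, ISG20 and SP140L, named after their values were seen except OASL. IFIT5 had 7.42 and 9.5 CPM in SCR MPS1i, against 1.49 and 1.5 in SCR IFNb and 0 and 0.581 in SCR DMSO (log2 fold change 2.49 ± 0.59, adjusted p = 0.000321), the largest positive difference of the 74 members, from 24 and 44 reads in SCR MPS1i, against 4 in each SCR IFNb library. OASL, a relative of the OAS enzymes, had 98.6 and 104 CPM in SCR MPS1i, against 57.2 and 71.5 in SCR IFNb and 11.8 and 14.7 in SCR DMSO (log2 fold change 0.66 ± 0.15 (SE), adjusted p = 0.000223), RSAD2 (viperin) had 28.7 and 23.5 CPM in SCR MPS1i, against 15.6 and 15 in SCR IFNb and 1.67 and 0.968 in SCR DMSO, and SP110, a nuclear body protein, had 101 and 87.7 CPM in SCR MPS1i, against 62.1 and 49.7 in SCR IFNb and 7 and 6 in SCR DMSO. On the gene-sum scaling their differences were 1.89, 0.05, 0.15 and 0.14, and of these 4 only IFIT5 was called. With exon-sharing regions RSAD2 turned to -0.81 and was called lower (adjusted p = 0.0005), and OASL turned to -0.24 and was not called. SP110 was at 0.04 and not called. IFIT5 was at 2.49, but no exon-sharing region on its strand was tested, so that value is no separate check. The tested region over IFIT5 exons on the opposite strand was called lower in SCR MPS1i. It had 12.98 and 20.08 CPM in SCR MPS1i, against 35.69 and 37.62 in SCR IFNb. Of genes that act on double-stranded RNA, also chosen with values known, EIF2AK2 (244 and 244 CPM in SCR MPS1i, 264 and 268 in SCR IFNb) and ADAR, the RNA editing enzyme (60 and 49.4 in SCR MPS1i, 49.1 and 48.5 in SCR IFNb), were not called. With exon-sharing regions ADAR was called lower, at -0.52, and EIF2AK2 was not called (-0.15), and on the gene-sum scaling EIF2AK2 (-0.73) and ADAR (-0.46) were both called lower.

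Interferon genes themselves were scarcely read. IFNB1, IFNL2 and IFNL3 had 0 reads in all 12 libraries, where a count of 0 allows up to 3 reads a library. IFNL1 had 1 and 5 reads in SCR MPS1i, against 0 in both SCR IFNb libraries. CXCL10, an interferon-induced chemokine, had 0 and 8 reads in SCR MPS1i, against 1 and 0 in SCR IFNb, and was not tested.

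Among the genes of the pathway, interferon signalling had 3 of 11 measured members higher and 2 lower (median 0.34), 1 higher and 4 lower on the gene-sum scaling (median -0.26), and 1 higher and 5 lower with exon-sharing regions (median -0.18). Over all gene sums 36.2% were higher and 3.36% lower. JAK1 had 21.3 and 26.1 CPM in SCR MPS1i, against 12.6 and 14.7 in SCR IFNb and 23 and 21.3 in SCR DMSO and IFNAR1 had 8.03 and 5.61 CPM in SCR MPS1i, against 2.97 and 0 in SCR IFNb and 5.67 and 6.39 in SCR DMSO, and both were called higher. JAK1 lost its call on the gene-sum scaling (0.21) and turned to -0.18 with exon-sharing regions. IFNAR1 rested on 8 and 0 reads in SCR IFNb and fell to 0.25, not called, with exon-sharing regions. PTPN2, a phosphatase that acts on JAK kinases, differed by 0.95 ± 0.17, and lost its call on the gene-sum scaling (0.34). Sensing and processing of double-stranded RNA had 5 of 27 measured members higher and 8 lower (median 0.15), 0 higher and 16 lower on the gene-sum scaling (median -0.46), and 0 higher and 16 lower with exon-sharing regions (median -0.39). PNPT1, a mitochondrial exonuclease, had 76 and 82.3 CPM in SCR MPS1i, against 129.7 and 113 in SCR IFNb and 39.8 and 41.8 in SCR DMSO and PRKRA, an activator of PKR, had 11.4 and 15.3 CPM in SCR MPS1i, against 25.7 and 31.2 in SCR IFNb and 9.5 and 9.3 in SCR DMSO, and both were lower after the pulse. ZC3HAV1, an antiviral zinc finger protein, had 195 and 182 CPM in SCR MPS1i, against 131 and 116 in SCR IFNb and 144 and 131 in SCR DMSO, higher on the region scaling, but at -0.01 on the gene-sum scaling and 0.08 with exon-sharing regions, neither called.

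DNA sensing had 1 of 13 measured members higher and 2 lower (median -0.22), 0 higher and 8 lower on the gene-sum scaling (median -0.83), and 0 higher and 6 lower with exon-sharing regions (median -0.55). The shares of all gene sums were 36.2% higher and 3.36% lower. ZBP1, a sensor of Z-form nucleic acid, had 4 and 1 reads in SCR MPS1i, against 29 and 13 in SCR IFNb, a ratio of 0.081 with a counting interval of 0.025 to 0.204. SAMHD1 differed by -0.59 ± 0.20 and RNASEH2B by 0.80 ± 0.29, which became -0.09, not called, with exon-sharing regions. Antigen presentation had 2 of 14 measured members higher and 3 lower (median -0.61), 1 higher and 7 lower on the gene-sum scaling (median -1.22), and 2 higher and 5 lower with exon-sharing regions (median -0.82). NLRC5, the activator of class I genes, had 62.4 and 61.8 CPM in SCR MPS1i, against 122 and 117 in SCR IFNb and 24.5 and 21.5 in SCR DMSO (log2 fold change -0.95 ± 0.14 (SE), adjusted p = 2.34e-08). TAPBP differed by 1.00 ± 0.25 and lost its call on the gene-sum scaling (0.39), as RNASEH2B did (0.19). HLA-B, whose paralogs can share reads, had 18 and 19 reads in SCR MPS1i, against 1 and 2 in SCR IFNb, and its log2 difference of 3.03 became 1.99 with exon-sharing regions.

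Targets of p53 were, on the region scaling, the list with the highest share of members higher in SCR MPS1i than in SCR IFNb, among lists of at least 10 measured members. It had 25 of 31 measured members higher and 1 lower (median 1.42), 13 higher and 2 lower on the gene-sum scaling (median 0.83), and 23 higher and 1 lower with exon-sharing regions (median 1.20). Of all gene sums 36.2% were higher and 3.36% lower. Against SCR DMSO 13 of the 31 were higher and 2 lower in SCR MPS1i (median 0.66), where all gene sums had a median of 0.09. In SCR IFNb 1 was higher than in SCR DMSO and 14 were lower (median -0.70), where all gene sums had a median of -0.57. CDKN1A, the p21 inhibitor of cyclin-dependent kinases, had 24.4 and 24.6 CPM in SCR MPS1i, against 6.69 and 9.03 in SCR IFNb and 4.83 and 4.26 in SCR DMSO (log2 fold change 1.64 ± 0.29 (SE), adjusted p = 8.67e-07). MDM2 had 323 and 308 CPM in SCR MPS1i, against 149 and 138 in SCR IFNb and 271 and 244 in SCR DMSO (log2 fold change 1.13 ± 0.10 (SE), adjusted p = 3.45e-18). Thus CDKN1A was above DMSO after the pulse, while MDM2 was slightly above DMSO after the pulse (log2 difference 0.29) and below it with interferon (-0.84). With exon-sharing regions, which hold most MDM2 reads, the MDM2 difference between SCR MPS1i and SCR IFNb was 0.04 and was not called.

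RRM2B, the p53-induced subunit of ribonucleotide reductase, had 18.2 and 24.8 CPM in SCR MPS1i, against 3.72 and 3.01 in SCR IFNb and 8.66 and 4.84 in SCR DMSO. TNFRSF10B, the death receptor DR5, had 182 and 156 CPM in SCR MPS1i, against 72.5 and 77.9 in SCR IFNb and 158 and 155 in SCR DMSO, and DDB2, a DNA damage binding protein, had 49.8 and 45.3 CPM in SCR MPS1i, against 17.1 and 9.78 in SCR IFNb and 51.8 and 56.2 in SCR DMSO. BTG2, an antiproliferative gene named after its values were seen, had 14.2 and 11.4 CPM in SCR MPS1i, against 2.6 and 1.13 in SCR IFNb and 1.5 and 1.94 in SCR DMSO. FAM111A was the 1 member lower after the pulse, at -0.56 ± 0.18. TNFRSF10B and DDB2 were not called between SCR MPS1i and SCR DMSO, and their SCR IFNb libraries were lower than both. With exon-sharing regions the differences of RRM2B and DDB2 were 0.58 and 0.87, in place of 2.69 and 1.81. For DDB2 47.2% of reads lay in regions over exons of the other strand.

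Inflammatory and early response genes were also higher in SCR MPS1i than in SCR IFNb. NF-kB targets and cytokines had 16 of 25 measured members higher and 0 lower (median 1.17), 6 higher and 1 lower on the gene-sum scaling (median 0.57), and 15 higher and 1 lower with exon-sharing regions (median 0.86). Among all gene sums 36.2% were higher and 3.36% lower. CXCL8, the chemokine interleukin 8, had 45.4 and 32.6 CPM in SCR MPS1i, against 16.4 and 7.52 in SCR IFNb and 5 and 4.26 in SCR DMSO (log2 fold change 1.69 ± 0.26 (SE), adjusted p = 4.03e-08). With exon-sharing regions the difference was 0.86. For CXCL8 SCR IFNb lay between SCR MPS1i and SCR DMSO. RELB and NFKBIZ, members of the NF-kB and I-kappa-B families, had 36.2 and 49 CPM in SCR MPS1i, against 14.5 and 18.1 in SCR IFNb and 32.3 and 31.2 in SCR DMSO for RELB and 42.3 and 43.6 CPM in SCR MPS1i, against 14.9 and 16.2 in SCR IFNb and 46.5 and 40.9 in SCR DMSO for NFKBIZ. Here SCR IFNb was below SCR DMSO.

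Immediate early and AP-1 genes had 12 of 19 measured members higher and 0 lower (median 1.36), 5 higher and 0 lower on the gene-sum scaling (median 0.75), and 10 higher and 0 lower with exon-sharing regions (median 0.89). For this list and the next, the shares of all gene sums were 36.2% higher and 3.36% lower. FOSL1, an AP-1 subunit, had 25.3 and 29.4 CPM in SCR MPS1i, against 4.46 and 8.65 in SCR IFNb and 15 and 13 in SCR DMSO (log2 fold change 2.07 ± 0.28 (SE), adjusted p = 4.99e-10). NR4A1, an orphan nuclear receptor, had 22.9 and 21.4 CPM in SCR MPS1i, against 6.69 and 10.5 in SCR IFNb and 7 and 5.62 in SCR DMSO. DUSP4 differed by 1.44 ± 0.27 and FOSL2 by 0.64 ± 0.13. With exon-sharing regions FOSL1 differed by 0.76, and FOSL2 was at 0.08 and not called, nor was it on the gene-sum scaling (0.03). ATF3, a transcription factor of stress responses, had 56.2 and 63.7 CPM in SCR MPS1i, against 17.5 and 15.8 in SCR IFNb and 9.66 and 6.97 in SCR DMSO (log2 fold change 1.85 ± 0.21 (SE), adjusted p = 8.79e-14). The unfolded protein and integrated stress response list that holds it had 8 of 14 measured members higher and 0 lower (median 0.80), 3 higher and 3 lower on the gene-sum scaling (median 0.19), and 8 higher and 2 lower with exon-sharing regions (median 0.72). ERN1, a sensor of unfolded proteins, differed by 1.52 ± 0.29 and SESN2, a stress-induced inhibitor of mTORC1, by 1.20 ± 0.37, a call that was lost on the gene-sum scaling (0.60). DDIT3 was not tested.

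Growth arrest and secretory genes of senescence had 10 of 17 measured members higher and 1 lower (median 1.17), 8 higher and 1 lower on the gene-sum scaling (median 0.57), and 10 higher and 3 lower with exon-sharing regions (median 0.88). Beside this list and the histones below, all gene sums had 36.2% higher and 3.36% lower. IGFBP7, a secreted binding protein, had 37.4 and 35.2 CPM in SCR MPS1i, against 9.67 and 6.77 in SCR IFNb and 16.2 and 17.2 in SCR DMSO, and PLAUR, the urokinase receptor, had 49.8 and 52.3 CPM in SCR MPS1i, against 21.2 and 24.1 in SCR IFNb and 23.8 and 24.6 in SCR DMSO. PLAT, tissue plasminogen activator, had 30 and 57 reads in SCR MPS1i, against 1 in each SCR IFNb library, a ratio of 29.6 with a counting interval of 7.94 to 248. Replication-dependent histones had 5 of 9 measured members higher and 0 lower (median 0.79), 2 higher and 1 lower on the gene-sum scaling (median 0.18), and 5 higher and 0 lower with exon-sharing regions (median 0.78). H3C12 had 37 and 46 reads in SCR MPS1i, against 1 and 5 in SCR IFNb. H2BC5 had 21 and 26.1 CPM in SCR MPS1i, against 8.55 and 7.52 in SCR IFNb and 5.5 and 6.39 in SCR DMSO, with 81.5% of its reads in regions over other-strand exons. H2AC6 had 55.6 and 68 CPM in SCR MPS1i, against 35.7 and 36.5 in SCR IFNb and 31.7 and 29.8 in SCR DMSO, and H2BC15 differed by 1.40 ± 0.40, and both calls were lost on the gene-sum scaling (0.18 and 0.79). Histone genes are near-identical copies, so their reads may be split between them.

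**Figure D3:**
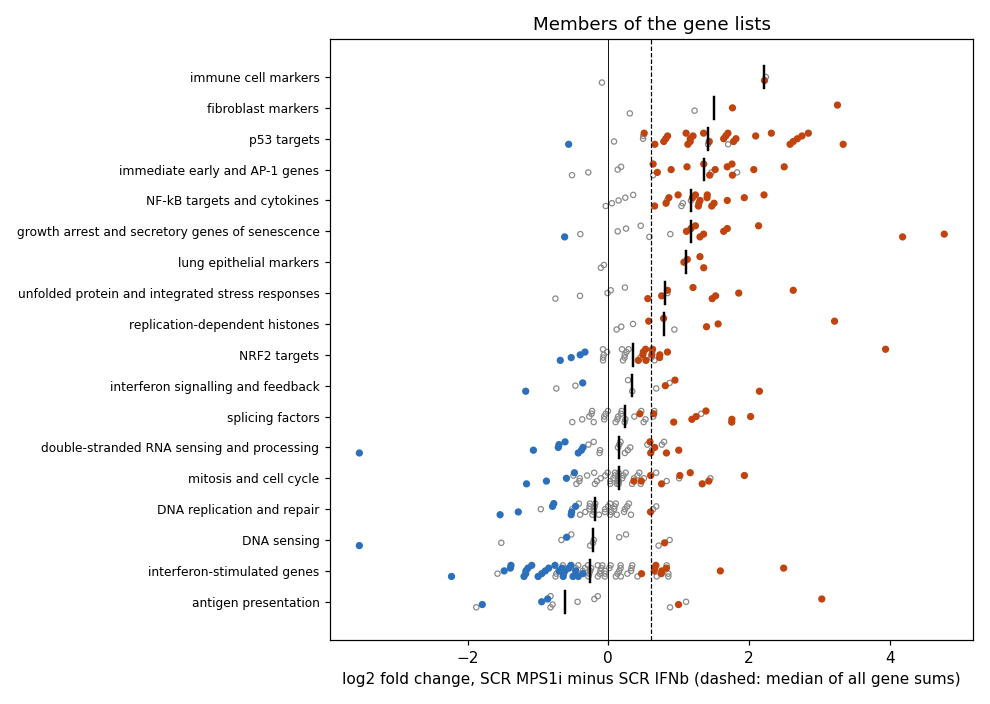
Each point is 1 measured member of a gene list at its log2 fold change between SCR MPS1i and SCR IFNb, filled orange (higher) or blue (lower) where the adjusted p was under 0.05 and open otherwise; short bars are list medians and the dashed line is the median of all gene sums, 0.61. The p53 list had a median of 1.42 and the interferon-stimulated list of -0.26, and on the gene-sum scaling these were 0.83 and -0.87.

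The lists of division and DNA replication had medians below that of all gene sums, of which 36.2% were higher and 3.36% lower. Mitosis and cell cycle had 9 of 49 measured members higher and 4 lower (median 0.15), 0 higher and 20 lower on the gene-sum scaling (median -0.46), and 4 higher and 19 lower with exon-sharing regions (median -0.20). NDC80, a kinetochore protein, had 38.3 and 34.3 CPM in SCR MPS1i, against 86.6 and 75.2 in SCR IFNb and 30.5 and 29.4 in SCR DMSO (log2 fold change -1.16 ± 0.16 (SE), adjusted p = 1.39e-09), and CENPA, the centromeric histone, had 186 and 179 CPM in SCR MPS1i, against 268 and 242 in SCR IFNb and 297 and 301 in SCR DMSO. CENPE and CENPF, larger kinetochore proteins, were higher after the pulse by 1.43 ± 0.32 and 1.33 ± 0.31 on the region scaling. On the gene-sum scaling they were at 0.82 and 0.73 and not called (adjusted p = 0.0515 and 0.0752), and with exon-sharing regions CENPE was at 0.09 and not called, while CENPF was at 1.38. DNA replication and repair had 1 of 39 measured members higher and 7 lower (median -0.19), 0 higher and 25 lower on the gene-sum scaling (median -0.80), and 0 higher and 16 lower with exon-sharing regions (median -0.43). CDC6, which licenses replication origins, had 10.2 and 10.4 CPM in SCR MPS1i, against 27.9 and 32 in SCR IFNb and 15.2 and 15.1 in SCR DMSO (log2 fold change -1.54 ± 0.25 (SE), adjusted p = 9.41e-08). RFC3, a subunit of the clamp loader, had 92.1 and 68.9 CPM in SCR MPS1i, against 148 and 129 in SCR IFNb and 111 and 113 in SCR DMSO, and BRCA1 had 32.4 and 27 CPM in SCR MPS1i, against 38.7 and 46.3 in SCR IFNb and 69.1 and 70.3 in SCR DMSO. CDC6 was above DMSO with interferon and not called against it after the pulse (adjusted p = 0.0575), and BRCA1 was below DMSO in both.

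NRF2 targets had 11 of 30 measured members higher and 4 lower (median 0.36). The share of higher members was close to the 36.2% of all gene sums, of which 3.36% were lower. On the gene-sum scaling 2 NRF2 targets were higher and 11 lower (median -0.25), and with exon-sharing regions 6 were higher and 15 lower (median -0.37). Splicing factors had 9 of 33 measured members higher and 0 lower (median 0.24), 2 higher and 6 lower on the gene-sum scaling (median -0.36), and 2 higher and 13 lower with exon-sharing regions (median -0.24). TXNRD1, thioredoxin reductase, had 1012 and 986 CPM in SCR MPS1i, against 677 and 707 in SCR IFNb and 2490.1 and 2230.4 in SCR DMSO, higher on the region scaling and at -0.08 on the gene-sum scaling. GCLC, of glutathione synthesis, differed by 0.62 ± 0.09, PTGR1 by 0.63 ± 0.09 and SLC7A11, the cystine transporter, by 0.84 ± 0.11, and all 4 were below DMSO in both treatments. HNRNPC, a splicing factor that covers Alu exons, had 114 and 119 CPM in SCR MPS1i, against 85.9 and 85 in SCR IFNb and 286 and 260.5 in SCR DMSO. HNRNPA2B1 differed by 2.02 ± 0.27 (with 85.2% of its reads in regions over exons of the other strand), NKTR by 1.25 ± 0.23, and CLK1 by 1.75 ± 0.49. TXNRD1, PTGR1, HNRNPA2B1 and HNRNPC turned negative when exon-sharing regions were included (-0.57, -0.22, -0.53 and -0.57). On the gene-sum scaling GCLC (0.01), PTGR1 (0.02), HNRNPC (-0.16) and CLK1 (1.15) were not called.

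The lung epithelial list had 4 of 6 measured members higher and 0 lower (median 1.10), 3 higher and 1 lower on the gene-sum scaling (median 0.49), and 2 higher and 1 lower with exon-sharing regions (median -0.20). Of its 6 measured members KRT7, KRT8, CDH1 and CEACAM6 were called. Beside the 3 cell type lists, 36.2% of all gene sums were higher and 3.36% lower. KRT8 had 51.6 and 51.6 CPM in SCR MPS1i, against 23 and 26 in SCR IFNb and 30 and 22.1 in SCR DMSO. KRT7 differed by 1.36 ± 0.25, CDH1 by 1.30 ± 0.24, CEACAM6 by 1.12 ± 0.29, KRT18 differed by -0.10 ± 0.17 and EPCAM by -0.06 ± 0.55. With exon-sharing regions KRT8 turned to -0.44 and was called lower, and CEACAM6 turned to -0.27 and was not called, which was also so on the gene-sum scaling (0.52). The summed level of the epithelial markers with those regions, given above, was likewise lower in SCR MPS1i than in SCR IFNb. The fibroblast list had 2 of 4 measured members higher and 0 lower (median 1.49), 2 higher and 0 lower on the gene-sum scaling (median 0.89), and 2 higher and 0 lower with exon-sharing regions (median 1.49). FAP, a surface protease, had 17 and 18.6 CPM in SCR MPS1i, against 6.69 and 3.76 in SCR IFNb and 1.83 and 0.968 in SCR DMSO, and VIM had 16 and 13 reads in SCR MPS1i, against 2 and 0 in SCR IFNb, a ratio of 9.86 with a counting interval of 2.49 to 85.3. COL6A3 and ACTA2 were not called. The immune list had 1 of 3 measured members higher and 0 lower (median 2.22), 0 higher and 0 lower on the gene-sum scaling (median 1.63), and 1 higher and 0 lower with exon-sharing regions (median 2.22), with CD8A called from 12 and 16 reads in SCR MPS1i, against 2 in each SCR IFNb library, and CD4 and ITGAM not called.

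Levels in the IFNAR1sg libraries do not enter the direct difference, but all 12 libraries shared the filter, scaling and estimate of spread. The IFNAR1sg libraries give the same contrast in cells labelled as lacking the receptor subunit. There, 4065 of the 14642 gene sums were higher with MPS1i than with IFNb (27.8%) and 2333 lower (15.9%). Of the 5298 gene sums higher in SCR MPS1i, 2333 were also higher in IFNAR1sg MPS1i (44.0% of the first set and 57.4% of the second), and 711 were lower. Against IFNAR1sg DMSO 2058 of the 5298 were higher with MPS1i (38.8%), where 26.8% of all gene sums were. Of the 492 gene sums lower in SCR MPS1i, 140 were also lower in IFNAR1sg (28.5% of the first set and 6.0% of the second) and 52 were higher. With each contrast scaled on the gene sums, 978 of 1566 higher gene sums were higher in IFNAR1sg too (62.5%, and 29.3% of the IFNAR1sg set), against 22.8% of all. Of 2131 lower ones 1007 were lower there (47.3%, and 29.4% of the IFNAR1sg set), against 23.4% of all. Lists differed in this. In IFNAR1sg cells 17 of 31 p53 targets were higher with MPS1i than with IFNb and 3 lower (median 0.68), 15 of 25 NF-kB targets were higher and 0 lower (median 1.13), and 9 of 19 immediate early genes were higher and 0 lower (median 1.12). Of 49 mitosis genes 2 were higher and 24 lower (median -0.48), and of 39 replication and repair genes 1 was higher and 26 lower (median -0.59).

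The genotype changed the direct difference for many genes. The interaction, the SCR difference minus the IFNAR1sg difference, was positive and called in 3316 gene sums (22.6%) and negative and called in 670 (4.58%), and on the gene-sum scaling in 1430 and 1433. In the interferon-stimulated list it was negative in 27 of 74 members and positive in 0 (median -0.59), with 25 members higher and 4 lower for MPS1i over IFNb in IFNAR1sg cells. IFNb still moved some genes in IFNAR1sg cells. Against IFNAR1sg DMSO 94 gene sums were higher (0.642%) and 93 lower (0.635%), and 43 of the 94 belonged to the 74 list members. IFIT1 had 52.2 and 39.8 CPM in IFNAR1sg MPS1i, 34.4 and 25.8 in IFNAR1sg IFNb and 5.78 and 6.05 in IFNAR1sg DMSO. CXCL8 had 22.6 and 14.6 CPM in IFNAR1sg MPS1i, 3.63 and 3.74 in IFNAR1sg IFNb and 3.33 and 4.62 in IFNAR1sg DMSO.

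**Figure D4:**
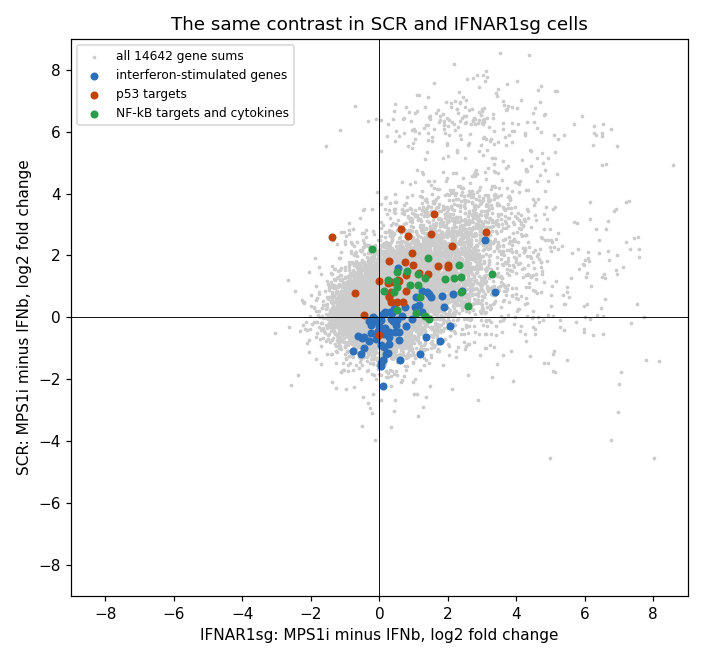
Each point is 1 gene sum, with the log2 fold change of MPS1i minus IFNb in IFNAR1sg cells on the x axis and in SCR cells on the y axis (1 gene lies beyond the axes, which end at 9 in each direction). The p53 and NF-kB members lie mostly above 0 on both axes, with SCR medians of 1.42 and 1.17, and the interferon-stimulated members spread downwards on the SCR axis, with a median of -0.26.

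Most repeat families were higher in SCR MPS1i on the region scaling, and far fewer when the sums were scaled on themselves. Repeat sums were made over regions that name exactly 1 repeat and share no exon base, and were called for 761 of 1811 subfamilies higher in SCR MPS1i (42.0%) and 51 lower (2.82%), and for 38 of 55 families higher (69.1%) and 0 lower (0.0%). At an unadjusted p under 0.05 there were 41 families in all, and DESeq2 called 27 higher and 0 lower. On scaling factors made from the sums themselves 156 subfamilies were higher and 261 lower, and 12 families were higher and 11 lower, so the calls of most families depended on the scaling.

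**Figure D5:**
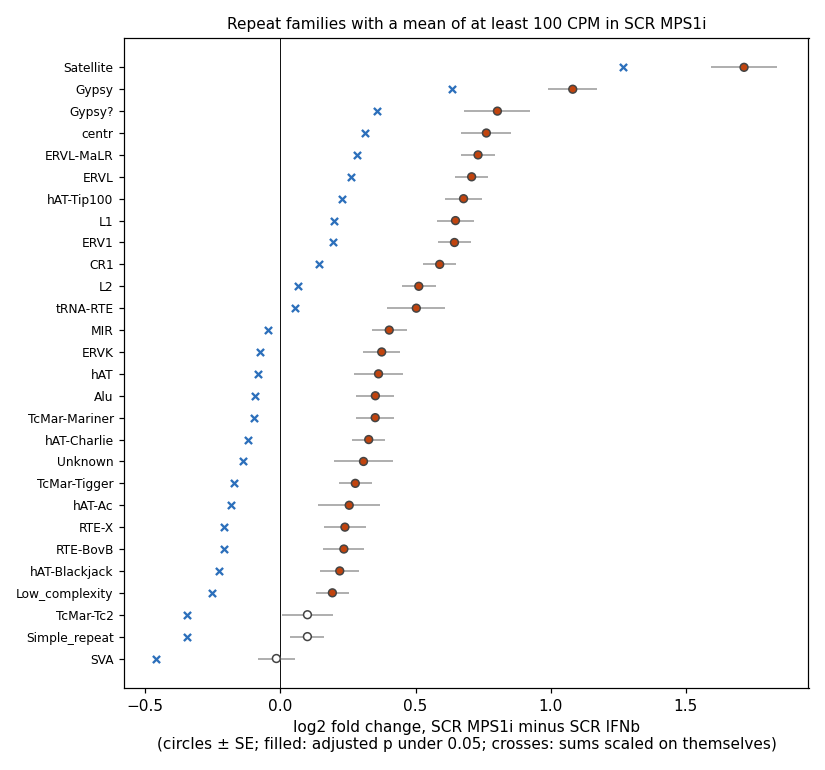
Circles give the log2 fold change (± SE) between SCR MPS1i and SCR IFNb for the 28 repeat families with a mean of at least 100 CPM in SCR MPS1i, filled where the adjusted p was under 0.05, and crosses give the value scaled on the family sums. Satellite (1.72) and Gypsy (1.08) stayed above 0 on both scalings, while Alu (0.35) and MIR (0.40) turned negative on the second.

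The families that stayed called and positive on both scalings included Satellite, Gypsy, ERVL-MaLR, ERVL, ERV1 and L1. With exon-sharing regions ERVL turned to -0.22 and the other 5 stayed positive, at 0.43 (L1) to 1.02 (Satellite), and 10 of the 38 called families kept their call under every alternative. Satellite, a family of tandem repeats, had 157 and 144 CPM in SCR MPS1i, against 41.3 and 50 in SCR IFNb and 119 and 99.7 in SCR DMSO (log2 fold change 1.72 ± 0.12 (SE), adjusted p = 3.91e-33). ERV1, the class I endogenous retroviruses, had 5446 and 5155 CPM in SCR MPS1i, against 3415 and 3369.5 in SCR IFNb and 3758 and 3428 in SCR DMSO (log2 fold change 0.64 ± 0.06). L1, the autonomous retrotransposon family, had 42836 and 39404 CPM in SCR MPS1i, against 26571 and 25926 in SCR IFNb and 35966 and 34427 in SCR DMSO (log2 fold change 0.65 ± 0.07). Alu, the short interspersed element that pairs with inverted copies, had 47582 and 49750 CPM in SCR MPS1i, against 36370 and 39935 in SCR IFNb and 56631 and 57929 in SCR DMSO (log2 fold change 0.35 ± 0.07), and was at -0.10 on the sums' own scaling and -0.11 with exon-sharing regions. SVA, a composite hominid element, had 619 and 592 CPM in SCR MPS1i, against 596 and 627 in SCR IFNb and 507 and 443 in SCR DMSO and differed by -0.02 ± 0.07 (adjusted p = 0.823). On the sums' own scaling SVA was called lower (-0.46), as were 5 of 6 SVA subfamilies. The other 31 called families differed by 0.19 (Low_complexity) to 1.18 (ERV1?).

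Of the subfamilies, L1MA3 had 519 and 470.5 CPM in SCR MPS1i, against 193 and 182 in SCR IFNb and 429.7 and 425 in SCR DMSO (log2 fold change 1.40 ± 0.09 (SE), adjusted p = 1.44e-23) and L1PA15 had 409.8 and 407 CPM in SCR MPS1i, against 188 and 175 in SCR IFNb and 328 and 309 in SCR DMSO. L1MA4A, L1MEf, MLT1D and L1MEg differed by 0.92 to 1.33. All 6 kept their call and sign under every alternative run for subfamilies. Of 131 L1 subfamilies 118 were higher and 1 lower, and on the sums' own scaling 48 were higher and 15 lower. For all 1811 subfamilies the shares were 42.0% higher and 2.82% lower, with 156 higher and 261 lower on the sums' own scaling. The lists of LTR12 and HERV9, elements of 1 retroviral group, had 7 of 7 and 3 of 3 higher, with 3 and 3 on the sums' own scaling. LTR12C, named after its values were seen, had 471 and 448 CPM in SCR MPS1i, against 227 and 244 in SCR IFNb and 206 and 182 in SCR DMSO, and HERV9-int had 21.9 and 24.4 CPM in SCR MPS1i, against 4.09 and 1.13 in SCR IFNb and 3.33 and 3.68 in SCR DMSO. The HERV9-int level in SCR IFNb rested on 11 and 3 reads. In IFNAR1sg cells LTR12C and HERV9-int differed by 1.25 and 2.42. In SCR cells both were above DMSO after the pulse, and with interferon HERV9-int was not called against DMSO and LTR12C differed from it by 0.28.

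The 6 subfamilies lower after the pulse with the smallest p were simple repeats. (TTTTCC)n had 86.8 and 79.5 CPM in SCR MPS1i, against 190.3 and 170.4 in SCR IFNb and 42.2 and 44.2 in SCR DMSO (log2 fold change -1.12 ± 0.13 (SE), adjusted p = 2.69e-12), and (CAGCC)n had 21.3 and 21.6 CPM in SCR MPS1i, against 55.8 and 68.5 in SCR IFNb and 6.16 and 7.94 in SCR DMSO. (ACAAT)n differed by -1.83 ± 0.25, (CCA)n by -1.23 ± 0.17, (GC)n by -0.76 ± 0.10 and (TTTCATT)n by -0.80 ± 0.13. Among 629 simple repeats 113 were higher and 30 lower, and on the sums' own scaling 11 were higher and 84 lower. All subfamilies together had 42.0% higher and 2.82% lower.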

How the data were processed

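RNA bound by the J2 antibody was sequenced from NCI-H1944 cells with a stranded total RNA kit, per the labels' protocols, and 12 libraries in 6 groups of 2 were read from 1 table. The deposited values are whole-number counts of reads per stranded region, given by the authors with no normalization; the submitters' processing notes name STAR, featureCounts, HOMER, Trim Galore, Trimmomatic and cutadapt, with the builds GRCh38 and hg38, and no source used here states the strand setting of the counting. In all, 5254113 regions are listed, and library totals ran from 3739443 to 7430687 reads. The members and gene lists were chosen with earlier results of these data known, and the lists give no independent support.

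Regions were placed against GENCODE 29 (bedtools 2.31.1). Counts were summed per gene and, where a region names exactly 1 repeat, per repeat subfamily and family, leaving out regions that share a base with an exon of their strand. Regions and sums were tested in edgeR 4.0.16 (R 4.3.3), with TMM factors from the filtered regions, filterByExpr (minimum count 10, total 15, proportion 0.7), the quasi-likelihood F-test over all 6 groups and Benjamini-Hochberg adjustment over all tested features (threshold 0.05). Adjusted p-values come from this test unless DESeq2 1.42.0 is named, and the fits were tested on simulated counts. Standard errors were taken as the log2 fold change over the root of F. Intervals of read ratios cover counting error only.

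Named genes were the 12 gene sums in each direction with the smallest p among called ones whose libraries did not overlap and that had at least 20 CPM in 1 group. In each list the 4 called members with the smallest p were named, and all members where 6 or fewer were measured. Named regions were the 8, and named subfamilies the 6, with the smallest p in each direction. IFNAR1, IFNB1, CXCL10, CXCL8, ISG15, CDKN1A, ATF3 and DDIT3 were named whatever their values. Some genes that these rules name are not reported here. Alternatives were other normalizations and library sizes, no filter, exon-sharing regions included, DESeq2's Wald test, each library left out and a replicate block. Promoter sequences are from RefSeq (GRCh38.p14), which matched 10249 of the 14642 tested genes.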

Additional observations from a re-analysis of the deposited data

Results flagged for a closer look

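For 22 of the 24 gene sums named by smallest p, the difference between MPS1i and IFNb itself differed between SCR and IFNAR1sg cells (interaction in edgeR's quasi-likelihood test, adjusted p under 0.05). Among genes higher in SCR MPS1i the interaction, as log2 SCR difference minus IFNAR1sg difference, was 2.19 for SNX31, 1.98 for RPL37A, 1.70 for SNHG5, 1.69 for CHST11, 1.61 for ENSG00000266302 and 1.55 for ZNF706. It was 1.30 for PVT1, 1.27 for PTCHD4, 1.04 for ALCAM and 0.98 for TSKU. Among genes lower in SCR MPS1i it was -4.30 for NEXN, -3.49 for GRIP2, -2.87 for GBP1P1, -2.33 for TRIM5, -2.09 for LIPA and -2.06 for PATL1. It was -2.04 for PSMB9, -2.0 for IFIT1, -1.53 for RMI2, -1.01 for NBEAP2, -0.70 for CHROMR and -0.69 for EXO1. The genes were picked by their SCR difference, which favours interactions of its sign. Over all gene sums 22.6% had a positive and 4.58% a negative interaction on the region scaling, and groups of 2 libraries are too small for a check of single outlying libraries.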

How the results depend on the processing

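Regions higher and lower were 10593 and 2050 without TMM factors and 2571 and 2025 without the filter. DESeq2's Wald test called 2600 regions higher and 4839 lower. Leaving out 1 library gave 2397 to 3719 higher and 2608 to 3319 lower. Gene sums were 8198 and 185 without TMM factors, 3482 and 443 by DESeq2, 4346 and 1671 with exon-sharing regions and 1566 and 2131 with factors made on the sums (chosen after seeing the data). Subfamilies were 156 and 261 on the sums' own factors, with 21 lower without TMM factors, 137 lower with exon-sharing regions and 32 to 40 lower with a library left out. Families were 12 and 11 on the sums' own factors and 22 and 6 with exon-sharing regions, and 1 was lower with library sizes free of exon-sharing reads. The interaction counts were 5236 and 355 without TMM factors and 1430 and 1433 on the gene sums' own factors. With exon-sharing regions these turned negative: JAK1 (-0.18), OASL (-0.24), RNASEH2B (-0.086), PTGR1 (-0.22), TXNRD1 (-0.57), HNRNPA2B1 (-0.53), HNRNPC (-0.57), KRT8 (-0.44), CEACAM6 (-0.27) and the families 5S-Deu-L2 (-0.50), Alu (-0.11), ERVL (-0.22), Low_complexity (-0.21), MIR (-0.17), hAT-Ac (-0.22), hAT-Blackjack (-0.033) and tRNA (-0.17). On the sums' own factors these did: ZC3HAV1 (-0.0076), TXNRD1 (-0.081), HNRNPC (-0.16), Alu (-0.10), DNA? (-0.054), ERVK (-0.075), LTR? (-0.035), Low_complexity (-0.25), MIR (-0.045), RTE-BovB (-0.21), RTE-X (-0.21), TcMar-Mariner (-0.10), TcMar-Tigger (-0.17), Unknown (-0.14), hAT (-0.085), hAT-Ac (-0.18), hAT-Blackjack (-0.23), hAT-Charlie (-0.12), hAT-Tip100? (-0.074) and tRNA (-0.16). The cause of these changes was not tested. All 16 named regions, 12 of 12 named subfamilies, 58 of 91 named genes and 10 of 38 families kept their call and direction under every alternative run for them. Same-numbered libraries did not deviate together (correlations of -0.049 to 0.066 over 15 pairs of groups). This cannot show whether they were prepared together, which the labels do not say. With the replicate block 6266 and 5602 regions, 5299 and 495 gene sums, 775 and 52 subfamilies, 39 and 0 families and 3360 and 672 interactions were called. Depth limits genes with few reads, such as IFIT5 or ZBP1.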

Other observations

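Other retroviral and L1 repeats were also read, on lists whose members were chosen with results of these data known. Of all 1811 subfamilies 42.0% were higher in SCR MPS1i than in SCR IFNb (median 0.64), and on the sums' own scaling 156 were higher and 261 lower. MER41, a group of retroviral long terminal repeats, had 6 of 7 subfamilies higher in SCR MPS1i than in SCR IFNb (median 1.14) and 2 higher and 1 lower on the sums' own scaling. LTR10, whose copies are known to hold AP-1 or p53 sites, had 11 of 16 higher (median 1.32) and 4 on the sums' own scaling. THE1 had 9 of 9 higher (median 0.70) and 4 on that scaling, and MLT1 38 of 52 (median 0.86) and 10, with 3 lower. The young L1 list had 9 of 9 higher (median 0.65), and 2 higher and 3 lower on the sums' own scaling. The medians of THE1 and young L1 were close to that of all subfamilies. In IFNAR1sg cells 5 of 7 MER41, 8 of 16 LTR10 and 9 of 9 young L1 subfamilies were higher with MPS1i than with IFNb, where 26.2% of all 1811 subfamilies were.

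Some list members with large differences, resting on few reads, had not been named by p. PLK2, a p53-induced polo-like kinase, had 3.4 and 4.53 CPM in SCR MPS1i, against 0.372 and 0.376 in SCR IFNb and 0.666 and 0 in SCR DMSO (log2 fold change 3.34 ± 1.01, edgeR adjusted p = 0.00494). FAS, the death receptor, had 1.55 and 3.02 CPM in SCR MPS1i, against 0.372 and 0.376 in SCR IFNb and 1.17 and 0.581 in SCR DMSO, and FDXR, a ferredoxin reductase induced by p53, had 10.8 and 13.4 CPM in SCR MPS1i, against 1.49 and 1.88 in SCR IFNb and 7.83 and 7.36 in SCR DMSO. THBS1, the matrix protein thrombospondin, had 4.02 and 3.67 CPM in SCR MPS1i, against 0.372 and 0 in SCR IFNb and 1.5 and 1.74 in SCR DMSO. PPP1R15A, which ends the integrated stress response, had 5.25 and 4.32 CPM in SCR MPS1i, against 1.12 and 0.376 in SCR IFNb and 0.167 and 0.387 in SCR DMSO (log2 fold change 2.63 ± 0.86). These genes were chosen after their values were seen, and their SCR IFNb levels came from few reads. In SCR IFNb 3 reads stood for 1.12 CPM in replicate 1 and 1.13 in replicate 2. The sizes of these differences are therefore imprecise, and no counting interval is given for them.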
